A study of Mus musculus with 2 samples.

Results

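The genes described here are 10 early-response genes: the AP-1 subunits Fos, Fosb, Jun, Junb and Jund, the related stress-induced factor Atf3, and Ier2, Ier3, Dusp1 and Klf4. They were listed by name and not by a rule on their measured values, but with earlier results of these data known. The matrices of splenic CD8 T cells hold 33696 genes. All 10 are in both matrices. They were read in the barcodes with at least 200 detected genes, under 10% mitochondrial UMIs, at least 1 UMI of Cd8a or Cd8b1 and at least 1 UMI of Cd3d, Cd3e or Cd3g. A UMI (unique molecular identifier) is 1 counted RNA molecule.

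Early-response genes are transcribed within minutes of a stimulus, without new protein synthesis. FOS and JUN family proteins then pair through leucine zippers to form AP-1, which in T cells acts downstream of the antigen receptor and co-stimulation. The same genes are also induced by tissue dissociation, warming and other stress, and the inducible HSP70 chaperone genes Hspa1a and Hspa1b are common markers of such stress. The relation of the 10 genes to those 2 chaperone genes was therefore followed, both cell by cell and between the libraries, as a check on cell handling.

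The DHEA library came from wild-type C57BL/6 mice made a model of polycystic ovary syndrome (PCOS) by subcutaneous DHEA, an androgen precursor, at 40 mg/kg in 20 µL sesame oil each day for 21 days. The CTRL library came from wild-type C57BL/6 mice given the oil alone on the same schedule. Each group is 1 droplet single-cell library (10x Genomics 3′ chemistry), the cells were pooled, and the sources used here give neither the age nor the number of the animals. In both groups spleens were strained cold, red cells were lysed at room temperature, and CD8 cells were taken with magnetic beads.

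The rule kept 10699 of 12128 DHEA barcodes and 8717 of 9495 CTRL barcodes, with 50077687 and 49239407 UMIs. Median depth was 4483 UMIs per cell with DHEA and 5615 with CTRL. The libraries had 51 barcodes in common, 40 of them in both sets of kept cells. The 7 T cell markers summed to 6682 CPM (UMIs per 1000000 UMIs) with DHEA and 5865 CPM with CTRL, none at 0, and Cd4 had 4 and 3 UMIs. The selection itself used 5 of the 7. Of the pair it did not use, Trac stood at 849 CPM with DHEA and 698 CPM with CTRL, in 88.5% and 89.0% of cells, and Trbc2 at 1742 and 1633 CPM, in 95.3% and 97.2%. The markers of antigen-experienced cells (Ccl5, Il2rb, Cxcr3, Ly6c2, Eomes, Cd44) summed to 2550 CPM with DHEA and 1222 CPM with CTRL. The markers of B cells summed to 289 CPM with DHEA and 268 CPM with CTRL, most of it Ighm. Those of myeloid cells summed to 79.3 and 68.3 CPM, most of it Cst3, and those of NK cells to 35.7 and 16.7 CPM, with Ncr1 at 0 with DHEA. Cells with a UMI of Lyz2, Csf1r, S100a8, S100a9, Fcer1g, Tyrobp, Cd79a or Ms4a1 made up 2.12% of DHEA and 2.70% of CTRL cells. With 1 library per group there is no replicate spread and no test of DHEA against CTRL. Every 95% interval below covers counting error only. Differences between mice, between pools and between the handling of the samples cannot be told apart from the treatment.

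The 250 bases before the annotated start of 9 of the 10 genes (all but Ier2) were matched by symbol in RefSeq (build GRCm38.p6). That is not the mm39 build of the submitters' notes, so the coordinates belong to GRCm38.p6 alone. Both strands were searched for the AP-1 site TGACTCA, the cyclic AMP response element TGACGTCA and its shorter form TGACGT (which lies within TGACGTCA), the serum response element core known as the CArG box, and the heat shock element core GAANNTTC. Fos, Jun and Dusp1 are shown because their windows hold a match and their levels follow HSP70 below, and Hspa1b as the chaperone gene they are set against. Atf3 meets both points too, though on few UMIs, and its window is not shown. Capitals mark the matches, and positions count back from the base before the start, which is -1. The Fos window is chr12:85473640-85473889 on the plus strand. The other windows are on the minus strand, at chr4:95052223-95052472 for Jun, chr17:26508473-26508722 for Dusp1 and chr17:34959239-34959488 for Hspa1b.
Fos: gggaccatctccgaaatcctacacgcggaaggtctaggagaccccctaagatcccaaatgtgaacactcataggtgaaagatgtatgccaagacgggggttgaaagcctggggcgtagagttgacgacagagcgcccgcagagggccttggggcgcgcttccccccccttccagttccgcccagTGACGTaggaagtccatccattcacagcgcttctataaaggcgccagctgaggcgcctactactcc
Jun: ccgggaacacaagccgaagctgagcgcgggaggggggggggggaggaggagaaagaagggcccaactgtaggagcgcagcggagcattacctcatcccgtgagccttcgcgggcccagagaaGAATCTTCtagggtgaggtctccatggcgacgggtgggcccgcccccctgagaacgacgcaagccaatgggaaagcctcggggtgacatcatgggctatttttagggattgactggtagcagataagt
Dusp1: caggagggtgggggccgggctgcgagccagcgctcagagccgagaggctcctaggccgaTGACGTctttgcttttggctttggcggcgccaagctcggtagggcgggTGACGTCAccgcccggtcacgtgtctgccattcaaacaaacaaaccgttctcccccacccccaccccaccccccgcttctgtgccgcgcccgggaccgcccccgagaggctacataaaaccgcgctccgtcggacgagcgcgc
Hspa1b: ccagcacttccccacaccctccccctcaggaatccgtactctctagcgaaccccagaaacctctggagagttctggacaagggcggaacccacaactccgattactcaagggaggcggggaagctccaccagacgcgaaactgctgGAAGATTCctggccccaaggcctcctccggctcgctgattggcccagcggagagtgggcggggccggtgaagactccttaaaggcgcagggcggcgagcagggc

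Fos held TGACGT from -66, and Dusp1 held TGACGTCA from -143 and a separate TGACGT from -191. Jun held the heat shock element core, as gaatcttc, from -128, and Hspa1b held it, as gaagattc, from -104. Atf3 held TGACGT on the opposite strand from -8, and the windows of Fosb, Junb, Jund, Ier3 and Klf4 held none of the letters searched. Of 32851 windows of the same length, 6.47% held TGACGT, 1.55% TGACGTCA, 4.46% TGACTCA, 1.47% the CArG box and 6.69% GAANNTTC. A match is a description of letters and not a bound site. The windows of Hspa1a and Hspa1b were identical at 247 of 250 bases, and reads of these near-identical genes may be split between them, so they are mostly used as a sum, called HSP70.

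Summed over all kept cells, the 10 genes stood at nearly the same level in both libraries, 2517 CPM with DHEA and 2432 CPM with CTRL (log2 ratio of DHEA over CTRL 0.05, 95% interval 0.04 to 0.06). Counts were summed per library, so fewer cells expressing a gene and less RNA per cell cannot be told apart in these sums. A gene counted as measured with at least 200 UMIs over both libraries, and a 1.5-fold ratio was used as a rule of size. Of the 10 genes, 9 were measured, 1 of them (Ier3) was at least 1.5-fold higher with DHEA, and 0 were at least 1.5-fold lower. Among all 10515 genes measured, 3.24% were at least 1.5-fold apart, 1.81% higher and 1.44% lower. The median log2 ratio was -0.01 over the 9 measured members and -0.002 over all genes, so the members' count and median were near those of the transcriptome.

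FOS proteins cannot pair with each other and need a JUN partner, and both FOS genes among the members were lower with DHEA. Fos (ENSMUSG00000021250) stood at 184 CPM with DHEA and 198 CPM with CTRL, a log2 ratio of -0.11 (95% interval -0.15 to -0.07). Fosb (ENSMUSG00000003545) stood at 43.9 CPM with DHEA and 57.6 CPM with CTRL, a log2 ratio of -0.39 (95% interval -0.47 to -0.31). The Fos ratio did not keep its sign in every subset of cells: it was 0.02 (95% interval -0.04 to 0.07) in cells without Ccl5 UMIs. In the few cells with 3 or more UMIs of receptor-induced genes it was 0.55 (0.20 to 0.90), and in quintile 4 of the Malat1 share 0.10 (0.01 to 0.18), both cell sets being described below.

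The JUN genes did not differ in one direction. Jun (ENSMUSG00000052684), the subunit with strong transactivation, stood at 515 CPM with DHEA and 520 CPM with CTRL, a log2 ratio of -0.01 whose interval, -0.04 to 0.01, held 0. Junb (ENSMUSG00000052837), which pairs with BATF in T cells, stood at 559 CPM with DHEA and 588 CPM with CTRL (log2 ratio -0.07, 95% interval -0.09 to -0.05). Jund (ENSMUSG00000071076), the JUN gene known for steady expression in resting cells, was higher, at 883 CPM with DHEA and 792 CPM with CTRL (log2 ratio 0.16, 95% interval 0.14 to 0.18). Atf3 (ENSMUSG00000026628), a stress-induced bZIP factor that often represses its targets, had 122 UMIs with DHEA and 72 with CTRL, under the 200 needed to be measured. Its log2 ratio was 0.74 with a wide interval, 0.30 to 1.18.

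Of the 4 early genes outside AP-1, both IER genes were higher with DHEA. Ier2 (ENSMUSG00000053560), a small nuclear early-response protein, stood at 235 CPM with DHEA and 183 CPM with CTRL (log2 ratio 0.36, 95% interval 0.32 to 0.40). Ier3 (ENSMUSG00000003541), linked to survival and NF-κB signalling, stood at 7.63 CPM with DHEA and 4.83 CPM with CTRL (log2 ratio 0.66, 95% interval 0.42 to 0.90). It rested on 382 and 238 UMIs, and its interval reached below the 1.5-fold line. Dusp1 (ENSMUSG00000024190), the phosphatase that switches off stress-activated MAP kinases, stood at 80.8 CPM with DHEA and 79.7 CPM with CTRL (log2 ratio 0.02, 95% interval -0.04 to 0.08). Klf4 (ENSMUSG00000003032), a zinc-finger factor that restrains T cell division, stood at 5.99 CPM with DHEA and 7.84 CPM with CTRL (log2 ratio -0.39, 95% interval -0.61 to -0.17). Its UMIs numbered 300 and 386.

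**Figure D1:**
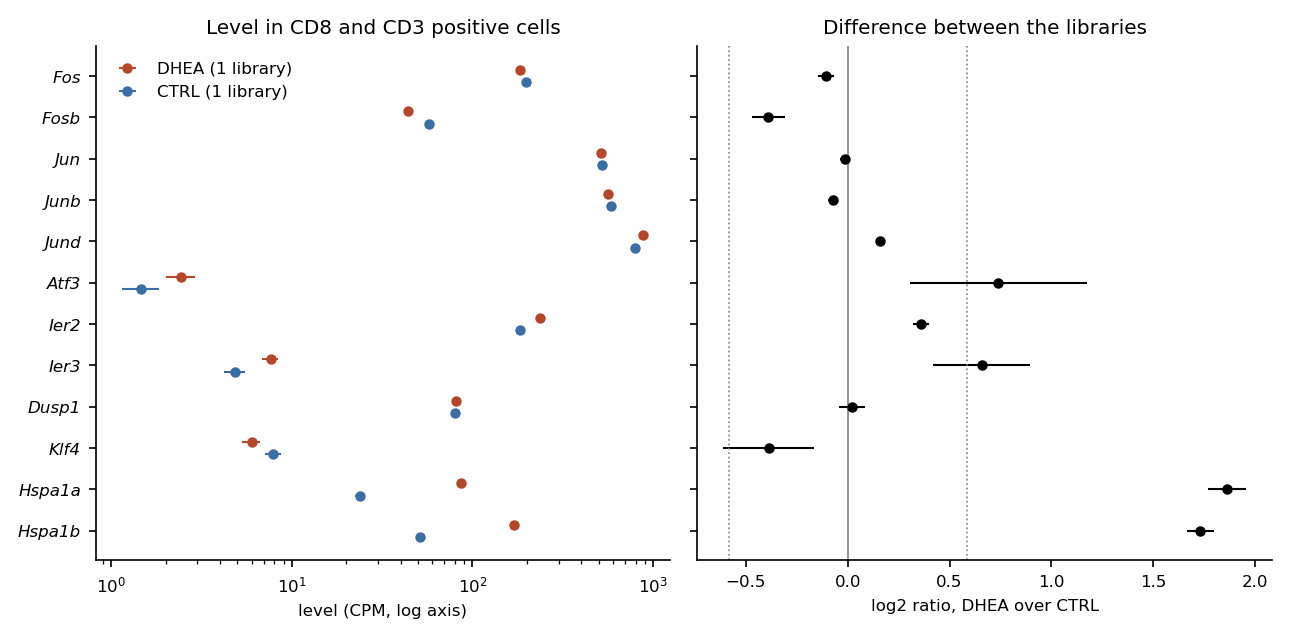
Left, level of each gene in CPM on a log axis in the DHEA library and the CTRL library with exact Poisson 95% intervals. Right, log2 ratio of DHEA over CTRL with exact 95% intervals from the split of both counts, and dotted lines at 1.5-fold. The 10 early genes lie around 0, Ier3 at 0.66 and Fosb at -0.39, while Hspa1a (1.86) and Hspa1b (1.73) lie far to the right.

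The share of cells with a UMI was compared after each cell was thinned to 1000 UMIs, which kept 10562 DHEA and 8709 CTRL cells and left out 137 and 8 shallower ones. Ier2 was found in 20.6% of thinned cells with DHEA (Clopper-Pearson 95% interval 19.9 to 21.4) and 16.4% with CTRL (15.7 to 17.2). Fosb was found in 3.82% with DHEA (3.46 to 4.2) and 5.30% with CTRL (4.84 to 5.80), and Fos in 14.5% (13.9 to 15.2) and 15.9% (15.1 to 16.7). These shares differed in the same direction as the levels. Jund was found in 54.0% with DHEA and 51.4% with CTRL, Junb in 38.3% and 40.2%, and Jun in 35.5% and 36.6%. Dusp1 was found in 8.27% with DHEA (7.76 to 8.82) and 7.18% with CTRL (6.64 to 7.74), although its levels in the unthinned sums were alike. The rarest genes were in under 1% of thinned cells: Ier3 in 0.710% with DHEA and 0.448% with CTRL, Klf4 in 0.720% and 0.746%, and Atf3 in 0.227% and 0.126%. Without thinning, at unequal depth, the shares with DHEA and with CTRL were 55.4% and 53.7% for Ier2, 13.9% and 21.1% for Fosb, 38.0% and 48.7% for Fos, and 25.9% and 30.9% for Dusp1. Ier2 stayed higher with DHEA without thinning and Dusp1 did not. Nearly every cell type can express these genes, so no cell type gave a background from free RNA, and its part in these shares was not tested.

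Single cells mostly held few of the 10 genes. The median thinned cell had UMIs of 2 members in both libraries, and 15.7% of DHEA and 15.1% of CTRL cells had none. Cells with 5 or more members made up 1.99% with DHEA (95% interval 1.73 to 2.27) and 1.66% with CTRL (1.41 to 1.96), and no cell had more than 7. Cells with most of the genes at once were thus rare in both libraries at this depth.

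HSP70 differed between the libraries far more than any of the 10 genes. Hspa1a stood at 86.3 CPM with DHEA and 23.7 CPM with CTRL, and Hspa1b at 171 CPM and 51.3 CPM. Their sum was 257 CPM with DHEA and 75.1 CPM with CTRL, a log2 ratio of 1.78 (95% interval 1.72 to 1.83). The difference was also one of cells: 15.2% of thinned DHEA cells had an HSP70 UMI (14.5 to 15.9) and 4.48% of CTRL cells (4.05 to 4.93), or 28.6% and 10.9% without thinning. The early genes did not move with HSP70 as a group: Jund, Ier2 and Ier3 were higher with DHEA by much less, Fos, Fosb, Junb and Klf4 were lower, and Jun and Dusp1 differed by less than their counting error.

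Within each library, however, cells with HSP70 had more of the early genes. Cells with 4 or more HSP70 UMIs, 1214 with DHEA and 346 with CTRL, were set against cells with 0, 7634 and 7764. All 9 measured members were higher by some amount in the HSP70 cells of both libraries, as were 43.9% of all genes with DHEA and 49.6% with CTRL. With DHEA 5 of 9 were at least 1.5-fold higher, against 0.826% of 9084 genes measured there, and with CTRL 6 of 9, against 2.99% of 9254 genes. None was 1.5-fold lower (1.02% and 4.16% of all genes were). The median log2 ratio was 0.63 over the members with DHEA and 0.87 with CTRL, and -0.02 and -0.002 over all genes.

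Fosb had the largest ratio of the measured members in both libraries. It stood at 89.0 CPM in HSP70 cells and 34.0 CPM in cells without HSP70 in the DHEA library, a log2 ratio of 1.39 (95% interval 1.24 to 1.53). In the CTRL library Fosb stood at 182 CPM in HSP70 cells and 47.6 CPM in cells without, a log2 ratio of 1.94 (1.78 to 2.09). By the lower of the ratios in the 2 libraries, with Hspa1a and Hspa1b left out, Fosb was the second of all genes measured and Fos the fourth. Fos stood at 348 CPM in HSP70 cells and 145 CPM in cells without in the DHEA library (log2 ratio 1.26, 1.19 to 1.33), and at 473 CPM and 177 CPM in the CTRL library (1.41, 1.32 to 1.5). Jun stood at 754 CPM in HSP70 cells and 458 CPM in cells without in the DHEA library (0.72, 0.67 to 0.76), and at 898 CPM and 490 CPM in the CTRL library (0.87, 0.81 to 0.94). The other JUN genes had smaller ratios, Junb of 0.12 with DHEA and 0.26 with CTRL, and Jund of 0.33 and 0.56.

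Outside AP-1, Dusp1 had log2 ratios of 0.40 (0.28 to 0.52) with DHEA and 0.80 (0.63 to 0.97) with CTRL, and Ier2 of 0.42 (0.35 to 0.49) and 0.94 (0.84 to 1.05). Ier2 stood at 295 CPM in HSP70 cells and 220 CPM in cells without in the DHEA library, and at 331 CPM and 172 CPM in the CTRL library. Klf4 had 0.64 (0.19 to 1.07) with DHEA and 1.47 (0.97 to 1.94) with CTRL. Ier3 had 0.63 (0.24 to 1.01) with DHEA but 0.09 (-0.88 to 0.93) with CTRL, where 12 UMIs stood in the HSP70 cells. Atf3, not measured, had 1.31 (0.65 to 1.94) with DHEA and 1.73 (0.52 to 2.76) with CTRL. Apart from Ier3, every member had the larger ratio in the CTRL library by its point value, and this difference between the libraries was not tested.

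**Figure D2:**
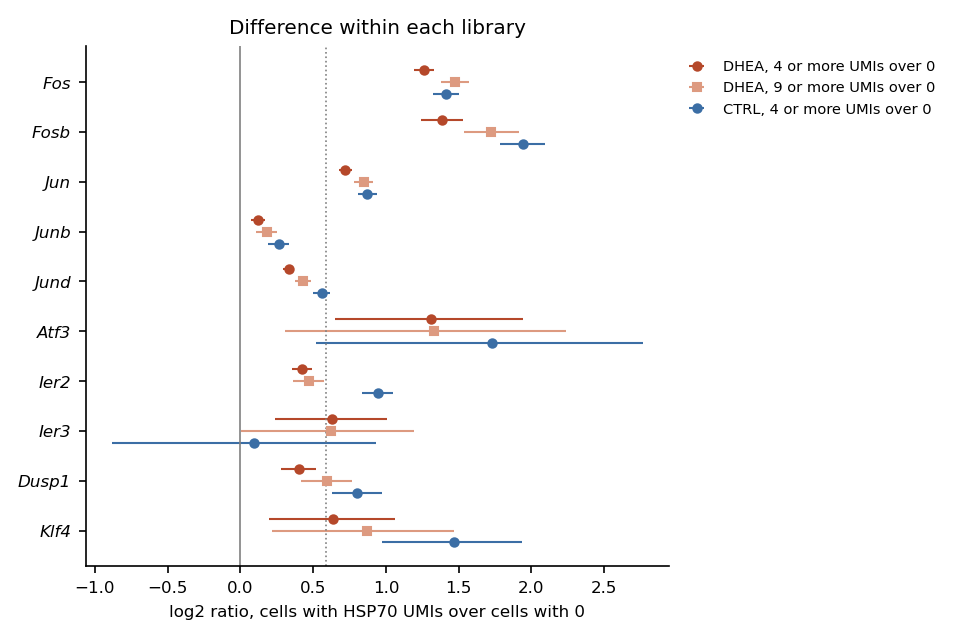
Log2 ratio of the level in cells with HSP70 UMIs over cells with 0, within each library, with exact 95% intervals for counting error and a dotted line at 1.5-fold. Circles take 4 or more HSP70 UMIs, and squares take 9 or more in the DHEA library, which sets apart 3.83% of its cells, near the 3.97% of CTRL cells with 4 or more. Of the measured genes, Fosb (1.39 with DHEA and 1.94 with CTRL) lies farthest to the right in both libraries, and Junb (0.12) lies nearest to 0 in the DHEA library.

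The threshold of 4 UMIs sets apart 11.3% of DHEA cells and 3.97% of CTRL cells, so the sets were also matched in share. The 410 DHEA cells with 9 or more HSP70 UMIs made up 3.83% of the library. In them 6 of 9 measured members were at least 1.5-fold higher than in cells with 0, against 1.43% of 8899 genes. Fosb was at 113 CPM (log2 ratio 1.73, 1.54 to 1.91) and Fos at 404 CPM (1.48, 1.38 to 1.57) in these cells. The Fos interval overlapped that of the CTRL library, as it already did at 4 or more UMIs. After matching, so did those of Fosb, Jun (0.85, 0.78 to 0.91), Junb (0.18, 0.11 to 0.25) and Dusp1 (0.59, 0.42 to 0.77). Those of Ier2 (0.47, 0.36 to 0.58) and Jund (0.43, 0.37 to 0.48) did not. By point value each of these genes but Fos stayed lower than in CTRL. HSP70 cells were deeper, with medians of 5898 UMIs with DHEA and 6583 with CTRL against 4204 and 5543 in cells with 0. With HSP70 and members both counted in thinned cells, 2 or more UMIs against 0, 4 of 7 measured members were at least 1.5-fold higher with DHEA (background 1.84%) and 5 of 7 with CTRL (background 11.1%). Fos then had log2 ratios of 1.20 (1.00 to 1.40) with DHEA and 1.47 (1.10 to 1.81) with CTRL, and Fosb 1.55 (1.15 to 1.93) and 1.69 (1.01 to 2.29). Among cells of 3000 to 6000 UMIs, 3 of 7 members were at least 1.5-fold higher with DHEA (background 0.839%) and 5 of 7 with CTRL (5.49%). Among Ccl5-negative cells it was 3 of 7 with DHEA (0.802%) and 6 of 8 with CTRL (3.26%), and with 1 or more HSP70 UMIs against 0 it was 2 of 9 with DHEA (0.371%) and 5 of 9 with CTRL (1.31%). Fos and Fosb were among the members called in each of these.

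Because the DHEA library held more HSP70 cells, the libraries were compared again among cells with the same number of HSP70 UMIs. Fos was lower with DHEA in all 4 ranges: 145 CPM with DHEA and 177 CPM with CTRL in cells with 0 UMIs, 196 and 238 CPM with 1, 215 and 328 CPM with 2 to 3, and 348 and 473 CPM with 4 or more. The log2 ratios of DHEA over CTRL were -0.29, -0.28, -0.61 and -0.44, and every interval lay below 0. Fosb had log2 ratios of -0.48, -1.09, -1.12 and -1.04, and Jun -0.10, -0.18, -0.27 and -0.25, again with every interval below 0. In cells of like HSP70 count these 3 genes were thus lower with DHEA by more than in the sums over all cells.

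Ier2 and Jund behaved differently across the ranges. Ier2 was higher with DHEA in cells with 0 HSP70 UMIs (log2 ratio 0.36, 95% interval 0.31 to 0.40) and with 1 (0.19, 0.03 to 0.35). It was at 0.03 (-0.15 to 0.21) with 2 to 3 UMIs and at -0.17 (-0.29 to -0.04) with 4 or more. Jund had log2 ratios of 0.14 (0.12 to 0.16), -0.005, -0.04 and -0.09 (-0.15 to -0.02) in the same order. Both genes therefore had opposite signs at the ends of the HSP70 scale. Klf4 had -0.29 (-0.56 to -0.02) in cells with 0, and among the higher ranges, where it was under 200 UMIs, -1.24, -1.43 and -1.12.

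By the 1.5-fold rule, 0 of 9 measured members were lower with DHEA in cells with 0 HSP70 UMIs (background 1.26%), 1 of 7 in cells with 1 (1.62%), 2 of 7 in cells with 2 to 3 (2.16%) and 1 of 7 in cells with 4 or more (0.941%). None was higher by that rule in any range, where 1.66%, 1.51%, 1.39% and 1.32% of all genes were. The members called were Fosb in all 3 ranges with HSP70 and Fos in cells with 2 to 3 UMIs. In cells with 4 or more UMIs all 7 measured members were lower with DHEA by some amount, where 47.8% of all genes were higher. HSP70 itself was not equal within the ranges, at 1411 CPM with DHEA and 1193 CPM with CTRL in cells with 4 or more UMIs. It was at 215 and 172 CPM in cells with 1, and at 495 and 416 CPM in cells with 2 to 3. Median depth was lower with DHEA in every range, as in cells with 1, at 4206 UMIs against 5831 with CTRL. Cells of like HSP70 count were thus not of like HSP70 level. Weighting the DHEA cells to the CTRL shares of the 4 ranges gave log2 ratios of -0.31 for Fos and -0.61 for Fosb.

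**Figure D3:**
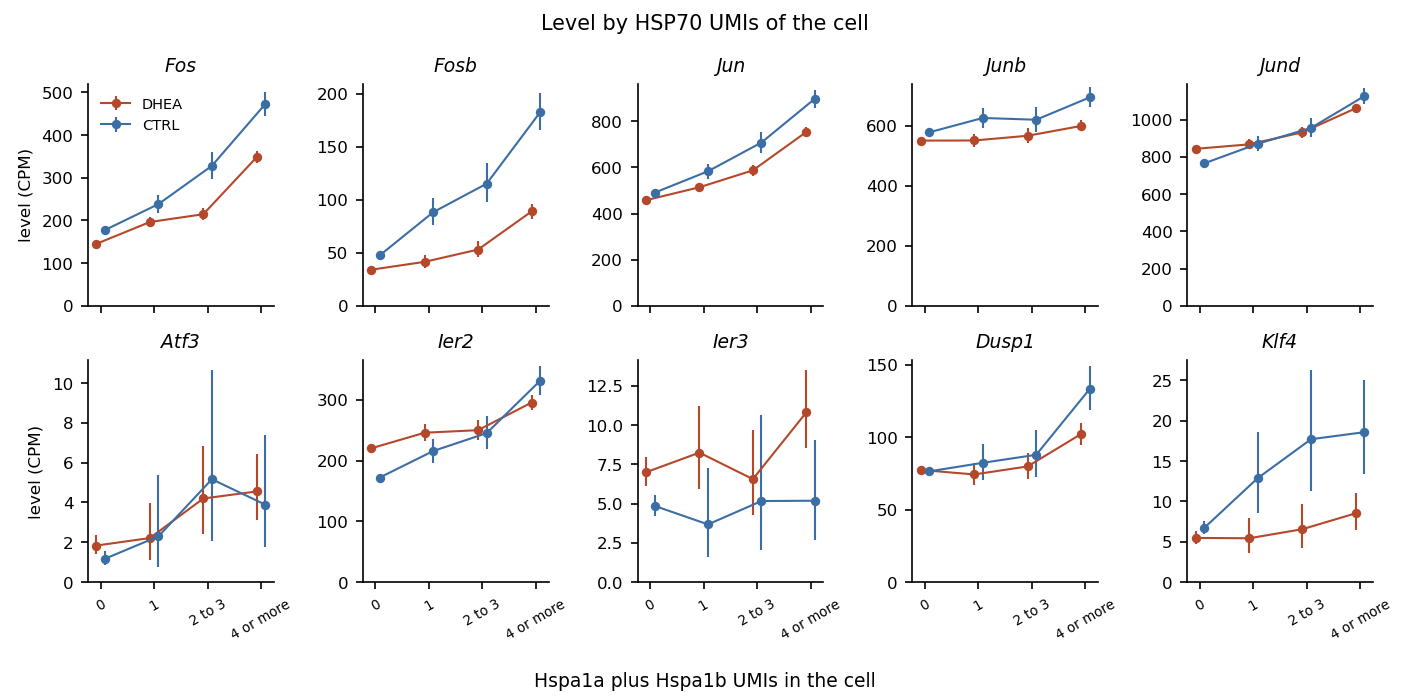
Level of each gene in CPM, on axes that start at 0, in cells with 0, 1, 2 to 3 and 4 or more HSP70 UMIs of the DHEA library and the CTRL library, with exact Poisson 95% intervals. Fos, Fosb and Jun are higher at each step in both libraries and lower with DHEA at every step, while the lines of Ier2 and Jund cross.

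The libraries also differed in T cell state, which was followed with Ccl5, a chemokine made by antigen-experienced CD8 cells. Cells with 3 or more Ccl5 UMIs made up 30.1% with DHEA and 15.7% with CTRL, and cells with 0 made up 51.2% and 70.4%. Within each library the Ccl5-rich cells had less Fos, Jun, Junb, Jund and Dusp1 and more Ier3. The Ccl5-rich cells were also deeper, with medians of 5377 UMIs with DHEA and 7179 with CTRL. Ccl5-negative cells had medians of 4031.5 and 5304. These cells were not compared at like depth, so the part of depth was not tested. Fos had log2 ratios of Ccl5-rich over Ccl5-negative cells of -0.54 (95% interval -0.61 to -0.47) with DHEA and -0.35 (-0.43 to -0.27) with CTRL. Jun had -0.33 and -0.32, Junb -0.36 and -0.25, Jund -0.16 and -0.20, and Dusp1 -0.26 and -0.36. Ier3 had 0.72 (0.40 to 1.05) with DHEA and 0.70 (0.24 to 1.14) with CTRL, and Atf3, not measured, 1.08 (0.46 to 1.71) and 1.10 (0.33 to 1.84). By the 1.5-fold rule, 1 of 9 measured members (Ier3) was higher with DHEA, against 4.6% of genes, and 0 of 8 with CTRL, against 4.17%. The rule called 0 members lower in either library (2.89% and 3.58% of genes). In CTRL Ier3 was under 200 UMIs over those cells. Ier2 was nearly flat over Ccl5, at 0.01 with DHEA and 0.11 with CTRL, and Klf4 had -0.49 (-0.89 to -0.10) and -0.09 (-0.48 to 0.28).

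Fosb was related to Ccl5 in the CTRL library, with a log2 ratio of Ccl5-rich over Ccl5-negative cells of 0.38 (0.25 to 0.51), against -0.03 (-0.17 to 0.10) in the DHEA library. It stood at 44.1, 45.1 and 43.1 CPM with DHEA, and at 54.1, 55.9 and 70.6 CPM with CTRL, in cells with 0, 1 to 2 and 3 or more Ccl5 UMIs. The log2 ratio of DHEA over CTRL was -0.30 (-0.41 to -0.18) in Ccl5-negative cells and -0.71 (-0.86 to -0.56) in Ccl5-rich cells. Ier2 was higher with DHEA in each range, by log2 ratios of 0.37, 0.41 and 0.28, and so was Jund, by 0.20, 0.10 and 0.23. These differences were therefore seen within cells of like Ccl5 count. Ier3 was higher with DHEA in Ccl5-negative cells (0.62, 0.26 to 0.97) and in Ccl5-rich cells (0.64, 0.22 to 1.08), and was at 0.03 (-0.56 to 0.63) in cells with 1 to 2 Ccl5 UMIs. By the 1.5-fold rule 1 of 9 measured members was higher in Ccl5-negative cells, against 0.724% of genes, and 0 were lower, against 0.944%. In Ccl5-rich cells 1 of 8 was higher, against 1.33%, and 1 of 8 was lower, against 1.09%. The higher gene was Ier3 in both and the lower one Fosb. Klf4, under 200 UMIs in Ccl5-rich cells, had -0.72 (-1.19 to -0.25) there.

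**Figure D4:**
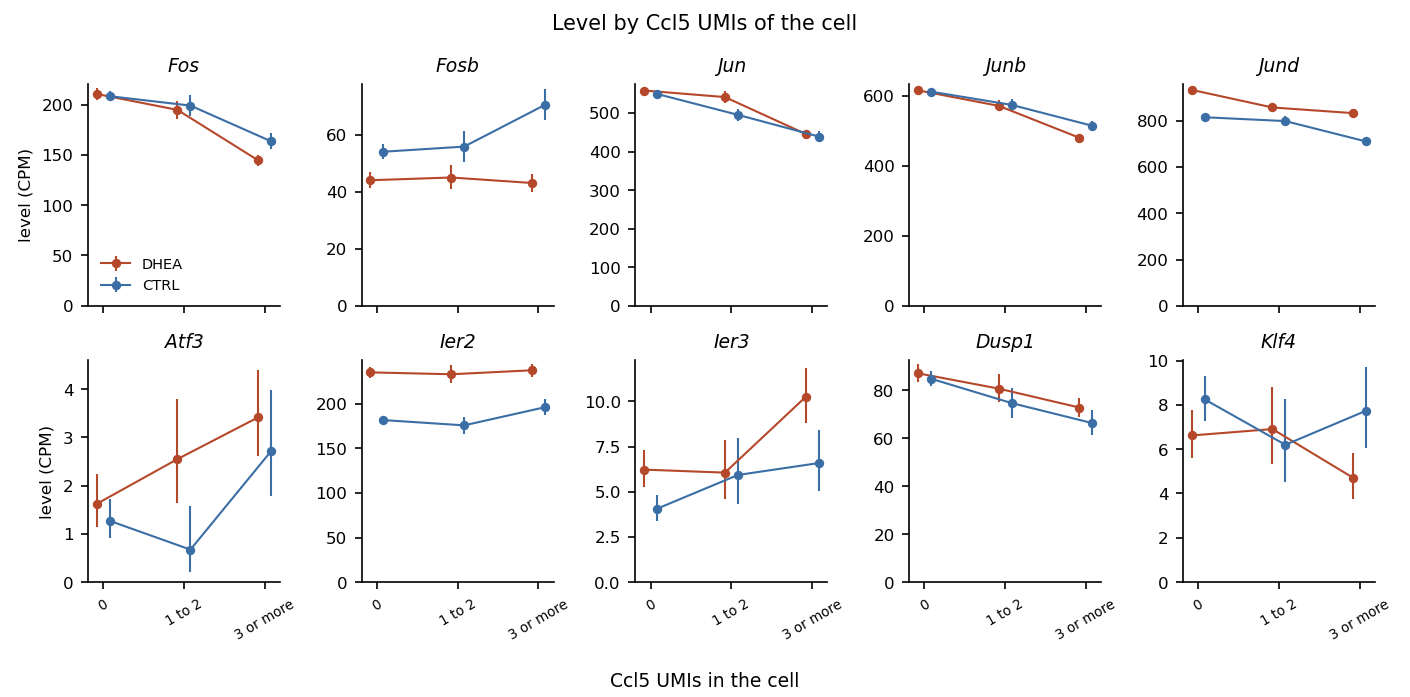
Level of each gene in CPM, on axes that start at 0, in cells with 0, 1 to 2 and 3 or more Ccl5 UMIs of the DHEA library and the CTRL library, with exact Poisson 95% intervals. Fos, Jun and Junb are lower in Ccl5-rich cells of both libraries, Ier2 is higher with DHEA in every range, and Fosb is flat with DHEA and higher in the Ccl5-rich cells with CTRL.

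Cells with recent receptor signalling were few. Cells with 3 or more UMIs of Egr2, Egr3, Nr4a3 and Tnfrsf9 together, all induced by the T cell receptor, numbered 89 with DHEA and 104 with CTRL. Against cells with 0 of these UMIs, Jun was lower in both libraries, with log2 ratios of -0.78 (-1.0 to -0.56) with DHEA and -0.70 (-0.89 to -0.53) with CTRL. Ier3 was higher, at 1.15 (0.08 to 2.05) with DHEA and 1.57 (0.54 to 2.44) with CTRL, from 10 and 11 UMIs. Ier2 had 0.19 (-0.05 to 0.42) with DHEA and 0.57 (0.37 to 0.76) with CTRL, and Fos 0.40 (0.15 to 0.64) and -0.25 (-0.50 to -0.002). HSP70 was lower in these cells, with 127 CPM with DHEA and 46.2 CPM with CTRL against 259 and 77.7 CPM in cells with 0. They were also deeper, with medians of 6692 UMIs with DHEA and 7106.5 with CTRL, against 4290 and 5493 in cells with 0. The part of depth in these ratios was not tested. By the 1.5-fold rule 1 of 9 measured members was higher and 1 lower with DHEA (background 13.6% and 16.2%), and 1 of 8 each with CTRL (12.7% and 13.1%). The lower gene was Jun in both libraries, and the higher one was Ier3 with DHEA and Klf4 with CTRL, where Ier3 was under 200 UMIs. With so many genes past the rule in these small sets of cells, the members' counts are near the background.

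Measures of depth and RNA quality moved with some of these values. Over quintiles of mitochondrial share taken across both libraries, the summed members were at 2643, 2627, 2486, 2328 and 2223 CPM with DHEA, low share to high. With CTRL they were at 2407, 2326, 2421, 2505 and 2431 CPM, without that order. HSP70 was higher at high mitochondrial share in both libraries, at 204 CPM in the lowest and 310 CPM in the highest quintile with DHEA, and 44.1 and 128 CPM with CTRL. Over quintiles of the share of the nuclear transcript Malat1, the summed members were at 2267, 2407, 2589, 2748 and 2788 CPM with DHEA and at 2023, 2271, 2354, 2510 and 2698 CPM with CTRL. Both libraries thus had more early-gene RNA in cells rich in Malat1, and at each quintile DHEA was the higher. The deepest quintile of cells had the least, 2205 CPM with DHEA and 2200 CPM with CTRL. The libraries differed in these measures themselves. The 5 transcripts listed as rich in nuclei (Malat1, Neat1, Gphn, Lars2, Camk1d) summed to 17497 CPM with DHEA and 22112 CPM with CTRL (log2 ratio -0.34), and the median mitochondrial share was 2.02% with DHEA and 2.51% with CTRL. The lowest Malat1 quintile held 26.8% of DHEA and 11.7% of CTRL cells, and the lowest mitochondrial quintile 30.2% and 7.43%.

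Within quintiles, where the libraries are closer in the measure, Ier2 kept its direction. Its log2 ratio of DHEA over CTRL lay between 0.32 and 0.42 over the Malat1 quintiles, between 0.15 and 0.51 over the mitochondrial ones and between 0.19 and 0.56 over the depth ones, each interval above 0. Jund lay between 0.05 and 0.26 over the Malat1 quintiles, but was -0.10 (95% interval -0.15 to -0.04) in the highest mitochondrial quintile and -0.05 (-0.14 to 0.03) in the shallowest cells. Fosb was below 0 in every quintile of the 3 measures, though its interval held 0 in the lowest Malat1 quintile (-0.27 to 0.26) and the lowest mitochondrial quintile (-0.35 to 0.23). Fos lay between -0.04 and 0.10 over the Malat1 quintiles, and over the mitochondrial ones it was -0.03, -0.001, -0.02, -0.19 and -0.28, low to high. Jun was above 0 in every Malat1 quintile, 0.03 to 0.14, and its ratio over the mitochondrial ones was 0.09, 0.10, -0.01, -0.15 and -0.15. Junb had 0.06 (0.01 to 0.11) in mitochondrial quintile 2 and -0.43 (-0.49 to -0.37) in quintile 4. Dusp1 had 0.24 (0.04 to 0.46) in mitochondrial quintile 1 and -0.23 (-0.38 to -0.08) in quintile 4. The ratios of Fos, Jun, Junb and Dusp1 between the libraries thus varied in sign with the mitochondrial share or the Malat1 share of the cells compared.

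Cell by cell, the 10 genes followed each other and HSP70 weakly. Over thinned cells (10562 with DHEA and 8709 with CTRL), the median Pearson correlation of log2(UMIs + 1) over pairs of members was 0.02 in each library, and the largest were 0.11 with DHEA and 0.09 with CTRL. The summed members had a correlation of 0.13 with HSP70 in the DHEA library and 0.12 in the CTRL library. Hspa1a and Hspa1b themselves, whose reads may be split between them, reached only 0.27 and 0.18. The part of sparse counts in these low values was not tested, and cells of a library share its handling and free RNA. The 8 genes most like the summed members, ranked by the lower of both libraries' correlations, were Nfkbia, Cd69, Hspa1b, Klf6, Dusp2, Btg2, Zfp36 and Gimap6. Nfkbia, the inhibitor of NF-κB, led with 0.13 and 0.12, and Cd69, the early activation receptor, had 0.13 and 0.11. These are descriptions over cells, with no test, and weak correlations in sparse counts are no finding.

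Of the genes around the members, the other bZIP factors that can join AP-1 had 0 of 9 measured genes (of 12) past 1.5-fold between the libraries (median log2 ratio -0.08). Maff, a small MAF protein, had the largest ratio at -0.53 (-0.78 to -0.28), followed by Fosl1 at 0.45, Batf at 0.22 and Atf2 at -0.21. Upstream kinases and factors had 0 of 21 (median -0.03). Srf, the serum response factor that drives Fos, stood at 17.4 CPM with DHEA and 12.4 CPM with CTRL (0.48, 0.33 to 0.64), its partner Elk1 had 0.40, and the kinases Mapk8 (JNK1) and Mapk14 (p38α) had -0.27 and -0.22. Genes of the feedback that ends the response had 0 of 11 measured genes of 14 (median 0.12). The phosphatase genes Dusp10 and Dusp5 had -0.35 and 0.29, the anti-proliferative Tob1 had 0.34, and Zfp36l2, whose protein speeds mRNA decay, had -0.34. None of the measured genes of these lists was past the rule of size, where 3.24% of all genes were. For lists of this size that count is near the background.

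Of 23 other early genes, 2 were at least 1.5-fold higher and 0 lower (median -0.02), against 1.81% and 1.44% of all genes. Those were Socs3, the brake on STAT3 signalling, at 38.5 CPM with DHEA and 22.7 CPM with CTRL (0.76, 0.65 to 0.87), and Klf2, the factor of quiescent T cells, at 916 and 589 CPM (0.64, 0.62 to 0.66). Nr4a3, a receptor-induced nuclear receptor, had -0.53 and Gadd45g 0.46. The heat shock list stood apart from the early genes: all 16 measured genes (of 17) were higher with DHEA (median 0.35, and -0.002 over all genes). At least 1.5-fold higher were 4 of them, against 1.81% of all genes. After Hspa1a and Hspa1b these were the HSP40 co-chaperones Dnajb1 (0.80, 0.74 to 0.87) and Dnaja1 (0.64, 0.61 to 0.67). The heat shock list was chosen with earlier results of these data known. Hsf1, the heat shock factor, had 0.09 (-0.003 to 0.18).

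Genes known as AP-1 targets in T cells were mostly higher with DHEA, 5 of 8 measured genes (of 10) by at least 1.5-fold and 0 lower (median 0.68), against 1.81% and 1.44% of genes. This list too was chosen with earlier results of these data known, so its count is not independent of them. The chemokine Ccl4 stood at 71.2 CPM with DHEA and 25.2 CPM with CTRL (log2 ratio 1.5, 1.40 to 1.59), and Fasl, the death ligand, at 4.89 and 1.91 CPM (1.36, 1.01 to 1.72). Ccl3 had 1.18 and the cytokine Ifng 0.71. These are also genes of antigen-experienced cells, whose share differed between the libraries. Within Ccl5-negative cells 1 of 5 measured targets was 1.5-fold higher and 1 lower (median 0.07), against 0.724% and 0.944% of genes. Within Ccl5-rich cells 2 of 8 were higher and 0 lower (median 0.37), against 1.33% and 1.09%.

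**Figure D5:**
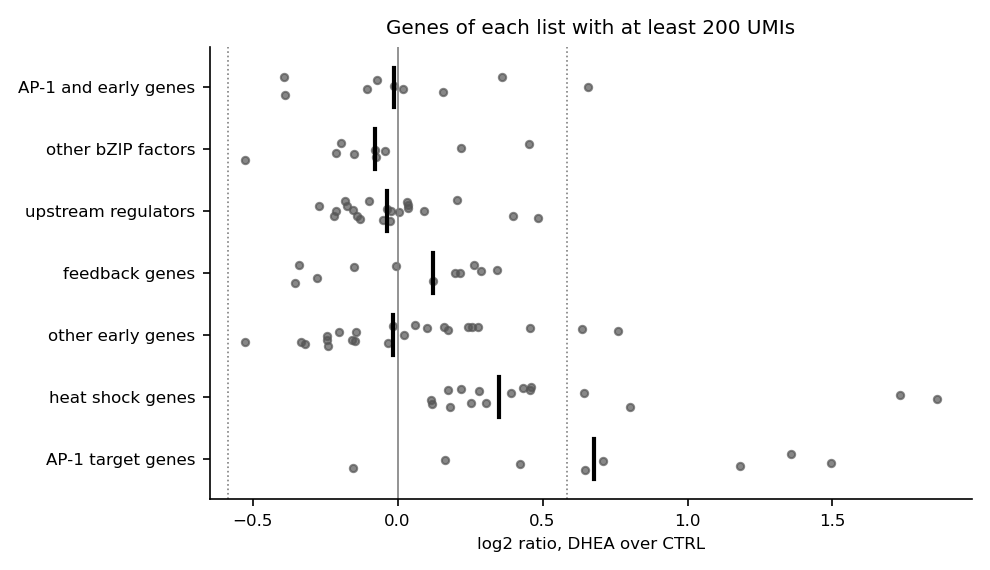
Log2 ratio of DHEA over CTRL for each gene of 7 lists with at least 200 UMIs, 1 point per gene, with the median of each list as a bar and dotted lines at 1.5-fold. The AP-1 and early genes centre at -0.01, the heat shock genes at 0.35 with all points right of 0, and the AP-1 target genes at 0.68.

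Barcodes outside the rule showed other levels. Those that passed the quality limits without CD8 or CD3 UMIs, 972 with DHEA and 493 with CTRL, had summed members at 2989 CPM with DHEA and 2951 CPM with CTRL. In them Ier3 stood at 8.87 CPM with DHEA and 22.7 CPM with CTRL, and Atf3 at 4.22 and 11.6 CPM, from 10 and 23 UMIs. The order of the libraries for Ier3 and Atf3 was thus opposite to that in the CD8 cells. The 7 T cell markers summed to 4051 CPM with DHEA and 3964 CPM with CTRL there, against 6682 and 5865 CPM in the CD8 cells. Most of these markers are the CD8 and CD3 genes that define the set, so a lower sum there was partly fixed by the selection. Median depth there was 1613 UMIs with DHEA and 3185 with CTRL, against 4483 and 5615. Markers of myeloid cells summed to 187 CPM with DHEA and 759 CPM with CTRL there, against 79.3 and 68.3 CPM in the CD8 cells. Those of NK cells summed to 241 and 328 CPM, against 35.7 and 16.7 CPM. Of the 7 myeloid markers 3 were at 0 there with DHEA and 2 with CTRL, and the part of such cells in these levels was not tested. Klf4 was higher there than in CD8 cells of both libraries, at 15.6 CPM with DHEA and 21.7 CPM with CTRL. Barcodes with 10% or more mitochondrial UMIs, 457 with DHEA and 285 with CTRL, had summed members at 1198 CPM with DHEA and 1591 CPM with CTRL, below the kept cells of both libraries. Not every gene was lower: Fosb with CTRL stood at 88.7 CPM there, against 57.6 CPM in kept cells (log2 ratio 0.62, 0.11 to 1.09). Ier3 with CTRL and Klf4 with DHEA were also higher by point value, from 3 and 5 UMIs.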

How the data were processed

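Single-cell RNA was measured in 1 DHEA and 1 CTRL library of splenic CD8 T cells. Per the file headers, Cell Ranger 8.0.1 made the deposited matrices, whose values are unnormalized UMI counts. Seurat 4.3.0 and mm39 stand in the submitters' processing notes without a role. The sources used here do not give how barcodes were called or doublets treated. No doublet caller was run, and an alternative left out the deepest 5% of cells.

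Counts were summed over cells, divided by the summed total (CPM), and compared as log2 ratios with exact 95% intervals from the binomial split. Intervals of CPM are exact Poisson ones and those of shares Clopper-Pearson ones, for counting error only. Where a set of cells had 0 UMIs no ratio was given. Depth was 50077687 UMIs with DHEA and 49239407 with CTRL, so genes under 200 UMIs are imprecise. Thinning drew 1000 UMIs per cell with a fixed seed. Promoter windows are RefSeq's. The ratio step was tested on simulated counts.

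Named genes were the 10 members, Hspa1a and Hspa1b, in each list up to 4 genes of largest absolute ratio, the 8 genes most correlated with the summed members, and markers. Others, such as Hsf1, Cxcl10 and Mx2, were chosen after their values were seen. The members and lists were chosen with earlier results of these data known. Tools were Python 3.11.15, numpy 2.4.6, scipy 1.17.1, pandas 2.3.3, matplotlib 3.10.9 and, for TMM scaling factors only, R 4.3.3 with edgeR 4.0.16.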

Additional observations from a re-analysis of the deposited data

Results flagged for a closer look

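Jund and Ier2 had opposite signs between DHEA and CTRL at the ends of the HSP70 scale. The log2 ratio of DHEA over CTRL of Jund was 0.1404 in cells with 0 Hspa1a and Hspa1b UMIs and -0.08619 in cells with 4 or more. That of Ier2 was 0.355 in cells with 0 and -0.1654 in cells with 4 or more. These genes stood out because their intervals lay above 0 in the one set of cells and below 0 in the other. With 1 library per group the difference between both sets of cells was not tested.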

How the results depend on the processing

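Each between-library ratio was recomputed under 21 alternatives, 2 of them added after seeing the data (only cells without Egr2, Egr3, Nr4a3 and Tnfrsf9 UMIs, and without cells with a UMI of another cell type's marker). Of the 21, 3 are filters on UMIs (50, 1000 or none), which cannot change a gene's own ratio. Fosb, Klf4, Jund, Ier2, Ier3 and Atf3 kept their sign in all 21, over log2 ranges of -0.71 to -0.27, -0.72 to -0.06, 0.05 to 0.23, 0.25 to 0.45, 0.48 to 0.86 and 0.33 to 0.96. Fos and Junb kept it in 20, turning to 0.02 and 0.01 in Ccl5-negative cells, Dusp1 in 19 and Jun in 17. Depth limits Atf3, Ier3 and Klf4, which had 72 to 386 UMIs per library. The count of members at least 1.5-fold higher with DHEA was 1, and it was 0 with cells thinned to 1000 UMIs, without the CD8 and CD3 requirement, in cells with 0 HSP70 UMIs, with DHEA cells weighted to the CTRL shares of HSP70 or of Ccl5 ranges, after subtracting the median of genes similar in genomic span, and with a minimum of 1000 UMIs. With thinning and the minimum of 1000, Ier3 was no longer measured, though its log2 ratio was 0.76 and 0.66. In the others it was 0.48 to 0.58, under the 1.5-fold line. The count was 2 with a minimum of 50 UMIs or none, since Atf3 then counts, where 7.14% and 32.4% of genes were 1.5-fold apart, against 3.24%. The count at least 1.5-fold lower was 0, and it was 1 (Fosb) in Ccl5-rich cells and with DHEA cells weighted to the HSP70 shares. For HSP70 cells over cells with 0 in the DHEA library the count was 5, and it was 3 in cells of 3000 to 6000 UMIs, 2 with 1 or more HSP70 UMIs against 0, and 3 in Ccl5-negative cells. In the first and last of these fewer members were measured. In the CTRL library it stayed within 1.5 times of 6. The matched share of HSP70 cells was also added after seeing the data. Except where stated, the cause of a move was not tested. No paired analysis was possible because each group is 1 library, and for the same reason no replicate could be left out. TMM scaling moved the median of all genes by under 0.1 on the log2 scale.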

Other observations

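Among all genes, the 10 with the highest ratio in cells with 4 or more HSP70 UMIs over cells with 0, by the lower of both libraries, were Cxcl10, Fosb, Gm57325, Fos, Gm56830, Isg15, Tnf, Gm57200, Mx2 and Rhob. The 3 with Gm names are predicted genes. All were named after their values were seen, and no gene list was tested on them. Cxcl10, an interferon-induced chemokine, led with log2 ratios of 1.67 with DHEA and 3.13 with CTRL. Isg15, a ubiquitin-like interferon-induced protein, had 1.22 and 1.30, and Mx2, an interferon-induced GTPase, 1.63 and 1.05. Tnf had 1.20 with DHEA and 1.86 with CTRL, and Rhob, an early-induced small GTPase, 0.94 and 1.70. Of the AP-1 targets, 2 of 8 measured genes were at least 1.5-fold higher in HSP70 cells and 1 lower with DHEA, against 0.826% and 1.02% of genes. With CTRL 3 of 6 were higher and 1 lower, against 2.99% and 4.16%. Of the other bZIP factors, 0 of 7 measured genes were at least 1.5-fold higher and 0 lower with DHEA. With CTRL 0 of 8 were higher and 1 lower by that rule, against the same shares of genes. Of the heat shock genes other than Hspa1a and Hspa1b, 4 of 14 were higher with DHEA and 3 of 14 with CTRL. None was lower, and their median log2 ratios were 0.19 and 0.28. Of the other early genes 2 of 22 were higher and 0 lower with DHEA, and 5 and 1 with CTRL. Of the feedback genes 2 of 11 were higher in each library, with 0 lower with DHEA and 1 with CTRL. Of the upstream genes 0 of 20 were past the rule in either library.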
